A study of Rattus norvegicus with 6 samples.

Results

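The endocytic genes described here were 10 genes chosen by symbol: the clathrin chains Cltc, Clta and Cltb, the membrane and actin adaptors Picalm, Bin1 and Cd2ap, the endosomal proteins Eea1, Rabep1 and Hgs, and the sorting receptor Sorl1. Of these, 9 had a row among the 18746 genes of the count table, and all 9 passed the filter on low counts. Sorl1 was not analysed here. The cells were labelled as PC12, a rat line that came from a tumor of the adrenal medulla. The siNQO1 group (3 libraries) was transfected with a reagent against Nqo1, and the siCtrl group (3 libraries) with a nontargeting one, both by lipofection. The methods of the study name these reagents as siRNAs, whereas the sample labels name an shRNA and a control plasmid, and both sources give the same grouping. For RT-qPCR the labels give a harvest at 48 h, and no separate time is stated for the sequenced cells. The study calls the samples biological replicates without saying what was separate between them, and the p-values rest on the spread among them. The question was whether the RNA levels of these genes differed after NQO1 knockdown.

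Clathrin-mediated endocytosis carries receptors and membrane from the cell surface inward. Adaptors gather cargo and recruit clathrin, a lattice of heavy chains that each bind a light chain, while proteins with curved or lipid-binding domains bend the membrane and set the size of the coat. The uncoated vesicle fuses with early endosomes under the small GTPase RAB5 and its effectors, and cargo is then recycled or passed to the ESCRT machinery for degradation. BIN1, PICALM, CD2AP and SORL1 are also known from genetic studies of Alzheimer disease, the field of the study.

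The study designed RT-PCR primers for alternative transcripts of Bin1 and Picalm, and they are shown here because the gene-level values below do not separate these transcripts. In each pair the forward primers share their 3′ ends, printed in capitals (10 bases in Bin1 and 11 in Picalm), and differ before them. All are written 5′ to 3′.
Bin1 model forward: cccatctcagAGCTCTCTCC
Bin1 alternative forward: aagcgacctccAGCTCTCTCC
Bin1 shared reverse: aagcgtccagtcgtagtgc
Picalm model forward: atgtttgttGGATTCAGTCC
Picalm alternative forward: acatggggaGGATTCAGTCC
Picalm shared reverse: accagaatctacagcaac

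Promoters were taken from RefSeq on the GRCr8 build as 250 bases before and 50 after the gene start. By symbol, 8 of the 9 genes matched, all except Rabep1. The promoter of Cltb, which rose in siNQO1, is printed with those of Eea1 and Cd2ap, whose levels varied together across the libraries. Capitals mark matches, on either strand, to the GC box, the CCAAT box and the cAMP response element, whose letters are given with their counts.
Cltb promoter, GRCr8 chr17:10006465-10006764, plus strand: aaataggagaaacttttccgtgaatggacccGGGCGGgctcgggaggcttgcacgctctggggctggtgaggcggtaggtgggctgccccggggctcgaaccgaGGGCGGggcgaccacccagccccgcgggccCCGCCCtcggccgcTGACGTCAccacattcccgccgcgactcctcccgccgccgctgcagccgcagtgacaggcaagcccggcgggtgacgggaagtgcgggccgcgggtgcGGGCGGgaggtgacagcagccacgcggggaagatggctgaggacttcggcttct
Eea1 promoter, GRCr8 chr7:32491308-32491607, plus strand: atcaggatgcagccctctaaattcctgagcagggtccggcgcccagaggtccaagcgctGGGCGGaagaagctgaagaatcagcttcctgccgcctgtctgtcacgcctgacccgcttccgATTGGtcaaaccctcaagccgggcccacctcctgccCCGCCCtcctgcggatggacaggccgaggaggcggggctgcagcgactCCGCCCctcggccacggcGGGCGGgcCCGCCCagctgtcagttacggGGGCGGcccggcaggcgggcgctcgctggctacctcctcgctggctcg
Cd2ap promoter, GRCr8 chr9:25583725-25584024, plus strand: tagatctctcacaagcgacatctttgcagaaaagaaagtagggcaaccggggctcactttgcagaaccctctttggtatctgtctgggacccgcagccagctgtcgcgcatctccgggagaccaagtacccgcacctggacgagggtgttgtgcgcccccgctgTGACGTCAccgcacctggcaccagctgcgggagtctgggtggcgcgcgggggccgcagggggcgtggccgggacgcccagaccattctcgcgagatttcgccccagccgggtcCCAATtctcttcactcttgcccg
The promoters of Cltb and Cd2ap each held the cAMP response element TGACGTCA, a palindrome found in 1.83% of the 33469 promoters of the same length. A GC box (GGGCGG) lay in the promoters of Bin1, Picalm, Eea1, Cltb and Cltc, against 33.1% of all promoters. The GC content was 72.3% in Cltb, 70.3% in Eea1 and 64.0% in Cd2ap, above the median of 51.7% over all promoters, and a GC box is itself made of G and C. A CCAAT box was present in Eea1, Cd2ap, Clta and Hgs, against 37.5% of all promoters. The core of the antioxidant response element (TGACNNNGC) was matched in Hgs alone of the 8 promoters and in 12.1% of all promoters. The E-box CACGTG, found in 6.42% of all promoters, had no match in these 8 windows. These matches describe letters in the windows and were not tested for binding.

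The libraries held 28873824 to 39467230 reads counted in genes. Nqo1 (ENSRNOG00000012772, chromosome 19) had an FPKM of 368.62, 320.51 and 345.29 in the siCtrl libraries and of 80.78, 75.20 and 77.72 in the siNQO1 libraries, and its log2 fold change was −2.13 (SE 0.0658, adjusted p = 1.54e-06 in edgeR's quasi-likelihood test). The defining markers of chromaffin cells went against the label: of 13 listed for PC12 cells, 11 had a row, only Scg2 and Snap25 exceeded 1 FPKM in every library, and Th, Ddc, Chga and Chgb were at or below 0.09 FPKM throughout. The summed FPKM of this list was 168 to 178 in siCtrl and 111 to 122 in siNQO1, almost all of it Scg2 (165.43 to 174.81 and 108.02 to 118.82), while Snap25 overlapped between groups. Schwann cell markers were higher in level, with sums of 425 to 488 in siCtrl and 380 to 386 in siNQO1 over 4 of 5 listed markers with a row, among them Sox10 at 192.45 to 232.81 FPKM. Summed fibroblast markers ran from 46.4 to 51.7 FPKM (almost all Pdgfra), and endothelial, macrophage and adrenal cortex lists stayed at or below 2.47 FPKM. The part of these differences in the results below was not tested. In bulk RNA, fewer cells of a type and less RNA per cell cannot be told apart.

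The siCtrl replicate 2 stood apart from the other siCtrl libraries in part of the transcriptome. Its share of mitochondrial reads was 6.40%, against 4.25% and 5.19% in siCtrl replicates 1 and 3 and 6.01% to 6.53% in siNQO1. Its log2 CPM differed by over 0.5 from the mean of siCtrl replicates 1 and 3 in 13.8% of genes tested. That share was not measured for the other siCtrl libraries, so alone it does not rank them. With siCtrl replicate 2 left out, edgeR called 4200 genes, against 1571 with all libraries and 518 to 1008 with any other left out. The 9 endocytic genes are therefore given with and without it. This library was singled out by its values, so p-values from fits without it are descriptive.

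Of the 9 endocytic genes, Bin1 and Cltb passed an adjusted p of 0.05 in edgeR's quasi-likelihood test of siNQO1 against siCtrl, both higher in siNQO1. Over all 12420 genes tested, 12.6% passed in either direction, 5.27% higher and 7.38% lower. The fitted log2 fold change was above 0 in all 9 genes, with a median of 0.23 against 0.01 over all genes tested. With Clta, 3 of the 9 genes had an unadjusted p under 0.05, all higher, as did 29% of all genes tested, 13.7% higher and 15.3% lower. In CPM, the siNQO1 libraries lay above every siCtrl library for Bin1, Clta and Cltb, a pattern that 16.3% of all genes tested showed, and 34.2% showed a separation in either direction. No exact permutation test of 3 libraries against 3 can give a two-sided p below 0.10. Bin1, Clta and Cltb each reached that value.

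**Figure D1:**
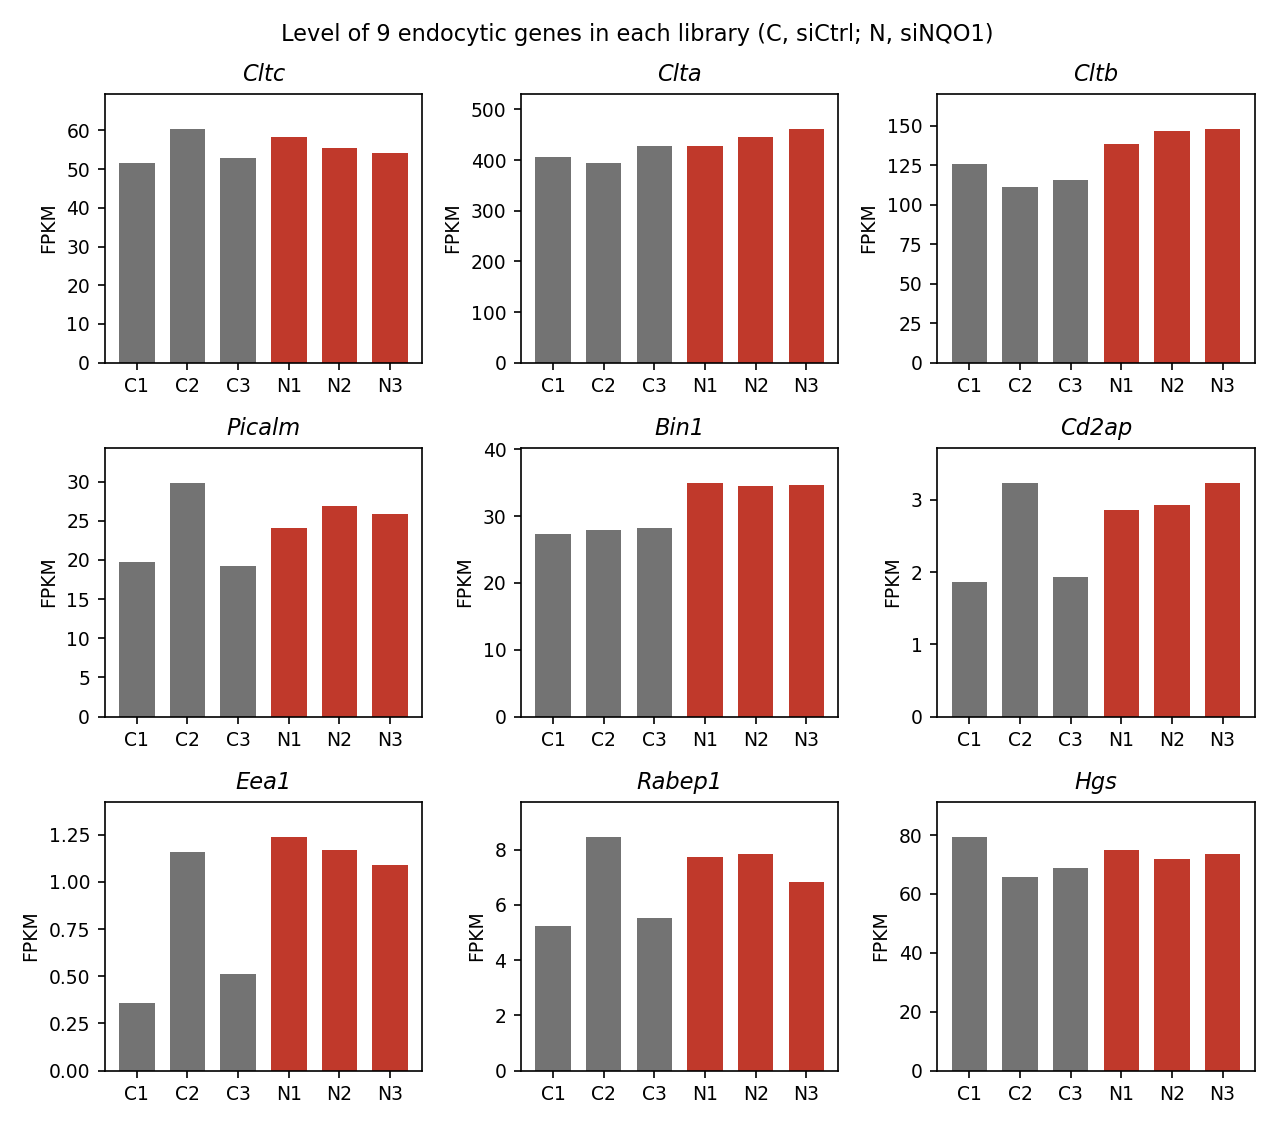
FPKM of each of the 9 genes (vertical axis, from 0, its own range in each panel) in siCtrl replicates 1 to 3 (C1 to C3, grey bars) and siNQO1 replicates 1 to 3 (N1 to N3, red bars), 1 bar a library with no averaging. Bin1 and Cltb were higher in all 3 siNQO1 libraries, whereas the C2 bars of Picalm, Cd2ap, Eea1 and Rabep1 stood with the red bars.

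In both groups the order of the levels per transcript length was the same. Mean FPKM in siCtrl fell from Clta (409) through Cltb (118), Hgs (71.3), Cltc (54.9), Bin1 (27.8), Picalm (22.9), Rabep1 (6.42) and Cd2ap (2.35) to Eea1 (0.677). In siCtrl, Bin1 and Picalm overlapped between libraries, so that their order did not exceed the spread. Each of the other neighbors in this order was separated in every library of both groups, as were Bin1 and Picalm in siNQO1.

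Cltc (ENSRNOG00000004291, chromosome 10) encodes the clathrin heavy chain. In replicate order, the siCtrl libraries had 51.56, 60.45 and 52.77 FPKM and the siNQO1 libraries 58.37, 55.51 and 54.14 FPKM, an order kept below. The siNQO1 values lay inside the siCtrl range, whose upper end was siCtrl replicate 2. The log2 fold change was 0.04 (SE 0.0684, 95% interval −0.113 to 0.198), with an adjusted p of 0.723 from edgeR. It was 0.11 without siCtrl replicate 2 (adjusted p = 0.0818).

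Clta (ENSRNOG00000014635, chromosome 5) encodes light chain A and was the highest of the 9 genes in level. Its FPKM was 406.17, 393.68 and 427.95 in siCtrl and 426.89, 446.05 and 461.97 in siNQO1. The groups overlapped narrowly in FPKM and were separate in CPM after TMM scaling. The siCtrl mean was 409 ± 17.3 FPKM and the siNQO1 mean 445 ± 17.6 FPKM (SD, n = 3 each). The log2 fold change of 0.13 (SE 0.0553) did not pass edgeR's test after adjustment over all genes (adjusted p = 0.15), nor did that of 0.10 without siCtrl replicate 2 (adjusted p = 0.0867).

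Cltb (ENSRNOG00000017506, chromosome 17) encodes light chain B, the less abundant of the light chains in these cells. Its FPKM was 126.08, 111.18 and 116.03 in siCtrl and 138.28, 146.67 and 148.28 in siNQO1. Every siNQO1 library was above every siCtrl library, and siCtrl replicate 2 was the lowest of the 6. The siCtrl mean was 118 ± 7.60 FPKM and the siNQO1 mean 144 ± 5.37 FPKM (SD, n = 3 each). Cltb rose 1.24-fold, a log2 fold change of 0.31 (SE 0.0578, 95% interval 0.176 to 0.44, adjusted p = 0.0119 in edgeR). The call was lost when siCtrl replicate 3 (adjusted p = 0.0504), siNQO1 replicate 2 (adjusted p = 0.0577) or siNQO1 replicate 3 (adjusted p = 0.05) was left out. The fold was 1.20 without siCtrl replicate 2 (adjusted p = 0.000936).

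The makeup of the light chains was compared within each library. Cltb took 23.7%, 22% and 21.3% of the summed light chain FPKM in siCtrl and 24.5%, 24.7% and 24.3% in siNQO1. All 3 siNQO1 shares were above the siCtrl shares, with means of 24.5% ± 0.226 and 22.3% ± 1.21 (SD, n = 3) and a difference of 2.16 percentage points. The exact two-sided permutation p was 0.1, the smallest possible here. The ratio of light chain FPKM to heavy chain FPKM was 10.3, 8.35 and 10.3 in siCtrl and 9.68, 10.7 and 11.3 in siNQO1. The groups overlapped in this ratio, and the means of 9.66 ± 1.13 and 10.5 ± 0.803 (SD, n = 3) differed with an exact permutation p of 0.4. RNA ratios across genes rest on the transcript lengths that the authors used for FPKM.

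**Figure D2:**
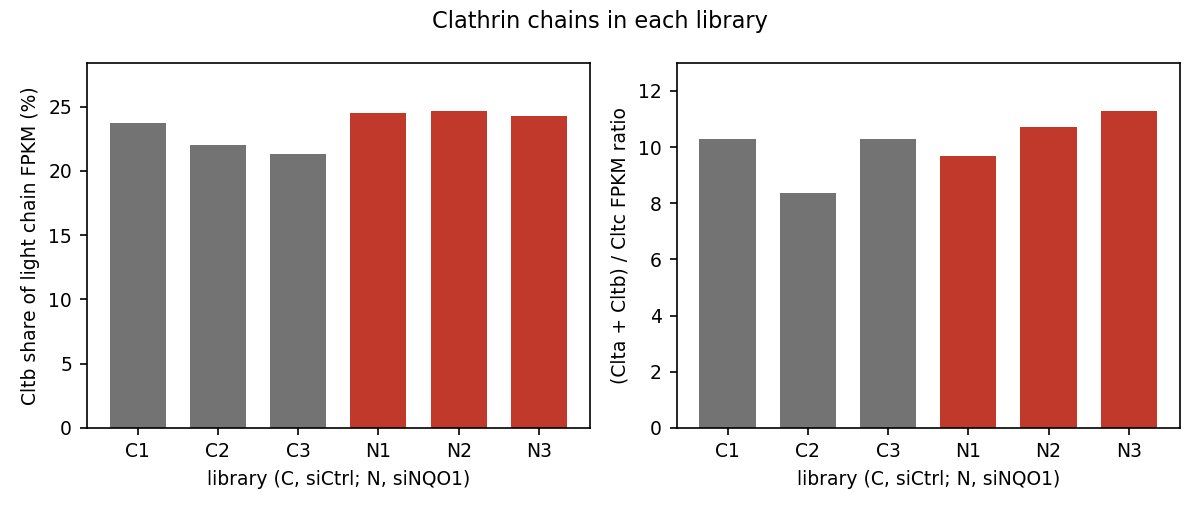
Left, share of Cltb in the summed FPKM of Clta and Cltb (percent); right, ratio of summed light chain FPKM to Cltc FPKM, each per library (C1 to C3, siCtrl, grey; N1 to N3, siNQO1, red), both axes from 0. The Cltb share was 21.3% to 23.7% in siCtrl and 24.3% to 24.7% in siNQO1, while the ratio overlapped between groups.

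Picalm (ENSRNOG00000018322, chromosome 1) encodes the clathrin assembly protein that binds phosphoinositides and brings small SNARE proteins into coated vesicles. Its FPKM was 19.67, 29.86 and 19.20 in siCtrl and 24.05, 26.91 and 25.87 in siNQO1. The siCtrl replicate 2 was the highest of the 6 libraries, and the other siCtrl libraries were the lowest. The groups therefore overlapped, with means of 22.9 ± 6.02 and 25.6 ± 1.45 FPKM (SD, n = 3). Picalm did not pass edgeR's test, with a log2 fold change of 0.17 (SE 0.151, 95% interval −0.169 to 0.518, adjusted p = 0.488). Without siCtrl replicate 2 the fold change rested on 2 siCtrl libraries and was 1.32, with an adjusted p of 0.000207.

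Bin1 (ENSRNOG00000012852, chromosome 18) encodes amphiphysin 2, a BAR domain protein that binds and curves membranes. It was the most even of the 9 genes within groups and the clearest between them. Its FPKM was 27.37, 27.93 and 28.20 in siCtrl and 35.02, 34.57 and 34.67 in siNQO1. No library overlapped with the other group, and siCtrl replicate 2 lay between the other siCtrl libraries. Bin1 rose 1.26-fold from 27.8 ± 0.423 to 34.8 ± 0.236 FPKM (SD, n = 3), a log2 fold change of 0.33 (SE 0.0471, 95% interval 0.226 to 0.441, adjusted p = 0.00396 in edgeR). The fold was also 1.26 without siCtrl replicate 2 (adjusted p = 0.000204), and the call held with each other library left out. The rise was smaller than 1.5-fold, and Bin1 did not pass a test against that fold. Which Bin1 transcripts carried the rise cannot be read from a value per gene.

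Cd2ap (ENSRNOG00000011987, chromosome 9) encodes a scaffold that links membrane receptors and endocytic proteins to actin. It was measured at low level, from 133 to 317 reads a library. Its FPKM was 1.86, 3.24 and 1.94 in siCtrl and 2.86, 2.93 and 3.23 in siNQO1. As in Picalm, siCtrl replicates 1 and 3 were the lowest libraries. At the top, siCtrl replicate 2 and siNQO1 replicate 3 were level, with 3.24 and 3.23 FPKM and with 8.01 and 8.02 CPM. The log2 fold change was 0.37 (SE 0.204, 95% interval −0.0968 to 0.83) and did not pass edgeR's test (adjusted p = 0.272). With siCtrl replicate 2 left out it was 0.67, or 1.59-fold (adjusted p = 0.00191).

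Eea1 (ENSRNOG00000021681, chromosome 7) encodes a long coiled-coil tether that binds RAB5 and phosphatidylinositol 3-phosphate and brings early endosomes together. Its level was the lowest of the 9 genes and its spread in siCtrl the widest. The reads numbered 58, 228 and 100 in siCtrl and 231, 215 and 240 in siNQO1, and the FPKM was 0.36, 1.16 and 0.51 in siCtrl and 1.24, 1.17 and 1.09 in siNQO1. The siCtrl replicate 2 fell within the siNQO1 range, while siCtrl replicates 1 and 3 were below every siNQO1 value by more than the whole siNQO1 range. With all libraries the log2 fold change was 0.79 (SE 0.351, 95% interval −0.0125 to 1.58), and it did not pass edgeR's test (adjusted p = 0.179). Without siCtrl replicate 2 it was 1.41, or 2.66-fold (SE 0.179, adjusted p = 9.84e-05).

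Rabep1 (ENSRNOG00000005015, chromosome 10) encodes rabaptin-5, another RAB5 effector, which works with a RAB5 exchange factor in endosome fusion. Its FPKM was 5.25, 8.47 and 5.53 in siCtrl and 7.72, 7.84 and 6.81 in siNQO1. The highest library was again siCtrl replicate 2, and the groups overlapped. The log2 fold change was 0.23 (SE 0.168, 95% interval −0.152 to 0.613, adjusted p = 0.404 in edgeR), and 0.47 without siCtrl replicate 2 (1.39-fold, adjusted p = 0.00117).

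Hgs (ENSRNOG00000036696, chromosome 10) encodes HRS, the ESCRT-0 subunit that gathers ubiquitinated cargo on endosomes. Its FPKM was 79.46, 65.68 and 68.76 in siCtrl and 74.91, 71.73 and 73.40 in siNQO1, all siNQO1 values inside the siCtrl range. Its log2 fold change was 0.05 (SE 0.0711, 95% interval −0.107 to 0.217, adjusted p = 0.654 in edgeR). Without siCtrl replicate 2 it was −0.01 (adjusted p = 0.948), so Hgs had no stable direction.

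**Figure D3:**
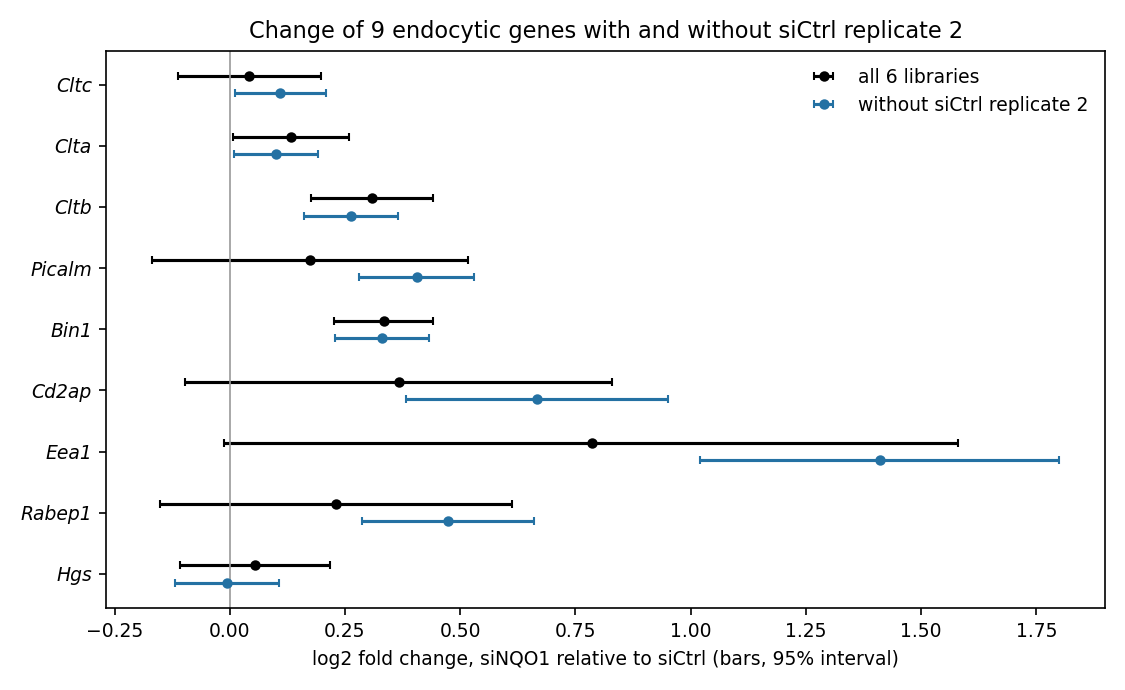
Log2 fold change of each gene in siNQO1 relative to siCtrl (horizontal axis) with its 95% interval, from all 6 libraries (black) and without siCtrl replicate 2 (blue). The intervals of Bin1, Cltb and, narrowly, Clta lay above 0 in both fits, and those of Picalm, Cd2ap, Eea1, Rabep1 and, narrowly, Cltc cleared 0 only without that library.

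Leaving out siCtrl replicate 2 changed the account of the endocytic genes more than any other library. With it left out, 6 of the 9 genes passed edgeR's test, all higher in siNQO1: Bin1, Cltb, Picalm, Cd2ap, Eea1 and Rabep1. The share over all genes tested also grew, to 33.3% in either direction and 17.2% higher. In Picalm, Cd2ap, Eea1 and Rabep1, siCtrl replicate 2 was the only siCtrl library not below every siNQO1 library. Leaving it out therefore separates the groups in these genes by construction, and their p-values in that fit carry no support for a rise. Leaving out another library left 2 genes called, without siCtrl replicate 1 or siNQO1 replicate 1, or Bin1 alone, without siCtrl replicate 3, siNQO1 replicate 2 or siNQO1 replicate 3.

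The departure of siCtrl replicate 2 was then measured as its log2 CPM minus the mean of siCtrl replicates 1 and 3. It was 1.40 in Eea1, higher than in 99% of genes tested, 0.75 in Cd2ap, 0.64 in Rabep1 and 0.60 in Picalm, which was higher than in 91.2% of genes. The siNQO1 mean departed from the same siCtrl libraries by 1.42, 0.66, 0.47 and 0.41 in these genes. Both departures are measured from the same pair of libraries, so they share its error. In Cltc the departure of siCtrl replicate 2 was 0.20. It was −0.01 in Bin1, −0.10 in Clta, −0.14 in Cltb and −0.19 in Hgs, where siCtrl replicate 2 did not lie toward siNQO1. Why siCtrl replicate 2 departed was not tested.

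**Figure D4:**
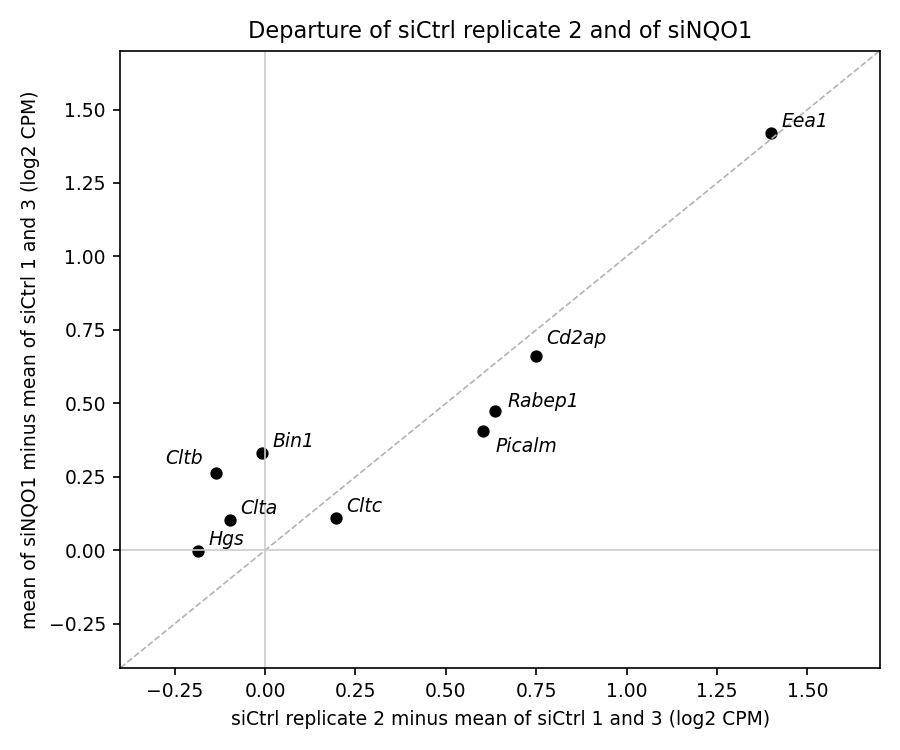
For each gene, siCtrl replicate 2 minus the mean of siCtrl replicates 1 and 3 (horizontal axis, log2 CPM) against the siNQO1 mean minus the same siCtrl mean (vertical axis, log2 CPM), with the line of equality dashed. Eea1, Cd2ap, Rabep1 and Picalm lay at 0.60 or more on the horizontal axis and 0.41 or more on the vertical, while Bin1 lay at −0.01 with a siNQO1 difference of 0.33.

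Across the 6 libraries the genes in which siCtrl replicate 2 departed most varied together. Pearson's r of log2 CPM was 0.96 between Eea1 and Cd2ap, 0.95 between Eea1 and Rabep1 and 0.95 between Picalm and Cd2ap. Genes grouped by the same departure share it over the same libraries, so high values among them follow in part from the grouping. Cltc, with a departure of only 0.20, gave 0.91 with Rabep1, 0.82 with Eea1, 0.76 with Picalm and 0.74 with Cd2ap. Bin1 gave 0.90 with Cltb and 0.82 with Clta. With the genes of that departure Bin1 gave 0.71 (Eea1), 0.61 (Cd2ap), 0.51 (Rabep1) and 0.41 (Picalm), so the patterns were not cleanly separate. Hgs and Picalm gave −0.50. These values describe 6 libraries of 2 groups that all genes share, and carry no test.

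The genes most like Bin1, Picalm and Eea1 over the 6 libraries were ranked among genes with a mean log2 CPM over 3. The levels of Nsdhl (r = 0.9987), Plekha2 (r = 0.9978) and Tmem14a (r = 0.997) were closest to that of Bin1. Sypl1 (r = 0.9993), Psmd12 (r = 0.9953) and Trpm7 (r = 0.9943) were closest to Picalm, and Elf2 (r = 0.9985), Usp9x (r = 0.9979) and Rock2 (r = 0.9978) to Eea1. With 6 libraries such values are common: r exceeded 0.95 in 240 genes for Bin1, 136 for Picalm and 485 for Eea1.

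The other genes of the pathway were taken from 11 lists arranged by role, with 229 genes, of which 217 had a row and 201 were tested. In edgeR 7 were higher and 16 lower in siNQO1, and 178 did not pass, so that 11.4% were called against 12.6% of all genes tested. Their median log2 fold change was −0.02. At an unadjusted p under 0.05 in the same test, 74 (36.8%) passed, 25 higher and 49 lower, against 29% of all genes. Without siCtrl replicate 2, 88 of the 201 were called (34 higher and 54 lower), or 43.8% against 33.3% of all genes in that fit. For named genes the adjusted p is that of edgeR's quasi-likelihood test over all genes.

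The AP-2 complex links cargo and membrane to clathrin at the cell surface. Of its genes and those of related cargo adaptors, 1 of 12 was higher and 4 were lower. That is 41.7% called, 8.33% higher and 33.3% lower, against 12.6% of all genes, 5.27% higher and 7.38% lower. The median log2 fold change was −0.20. At an unadjusted p under 0.05 in edgeR's test, 8 of the 12 (66.7%) passed, 1 higher and 7 lower, against 29% of all genes. The difference between these shares was not tested. Ap2b1, the beta subunit that binds clathrin, had an FPKM of 58.91, 50.33 and 55.19 in siCtrl and 39.78, 38.92 and 40.67 in siNQO1. It fell by 0.45 on the log2 scale (SE 0.0633, adjusted p = 0.00396). The large subunit gene Ap2a1, named after its value was seen, fell by 0.23 (adjusted p = 0.0346). The remaining subunit genes did not pass, with log2 fold changes of −0.20 in Ap2a2 (adjusted p = 0.0529), −0.18 in Ap2m1 (adjusted p = 0.102), the most abundant gene of the list, and −0.05 in Ap2s1 (adjusted p = 0.576).

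The adaptors Numb and Numbl, paralogs that bind cargo tails and Notch pathway proteins, moved in opposite directions. Numb had an FPKM of 11.37, 11.47 and 9.80 in siCtrl and 7.90, 7.61 and 8.04 in siNQO1, a log2 fold change of −0.46 (SE 0.0853, adjusted p = 0.0118). Numbl had 19.19, 18.26 and 19.36 in siCtrl and 27.59, 30.28 and 29.99 in siNQO1, a log2 fold change of 0.64 (SE 0.0562, adjusted p = 0.000486). Neither gene overlapped between groups. Dab2, a clathrin adaptor for cargo receptors, fell by 0.32 (adjusted p = 0.0205). The count of 5 called genes on this list became 9 without siCtrl replicate 2 (1 higher, 8 lower), in a fit that called 33.3% of all genes. The count was 3 without siCtrl replicate 1 or siNQO1 replicate 1, 2 without siNQO1 replicate 2 or 3, and 4 without siCtrl replicate 3.

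Among genes of coat nucleation, assembly and the actin link, 1 of 22 was higher and 2 were lower. That is 13.6% called, against 12.6% of all genes. At an unadjusted p under 0.05 in edgeR's test, 14 (63.6%) passed, 9 higher and 5 lower, against 29% of all genes. Necap1, which works with AP-2 in coat assembly, had an FPKM of 28.23, 27.60 and 25.21 in siCtrl and 20.62, 19.00 and 19.97 in siNQO1, with no overlap, and fell by 0.43 (SE 0.0611, adjusted p = 0.00408). Eps15, a scaffold of the early coat, rose by 0.25 (adjusted p = 0.0345), and Epn2, an epsin, fell by 0.22 (adjusted p = 0.0468). The actin capping gene Capzb, the most abundant of the list, had a log2 fold change of 0.14 (adjusted p = 0.093). The list had 12 called genes without siCtrl replicate 2 (7 higher, 5 lower), in a fit that called 33.3% of all genes. It had 1 or 2 with any other library left out.

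Of 24 genes of membrane curvature, scission and uncoating, 3 were lower and no gene was higher, by edgeR and by DESeq2 alike. In edgeR that is 12.5% lower, where 7.38% of all genes were lower and 5.27% higher. Sh3glb2, an endophilin B gene, fell by 0.39 (adjusted p = 0.00515), Pacsin2, which encodes an F-BAR protein, by 0.32 (adjusted p = 0.00545) and Snx9, a sorting nexin that binds dynamin, by 0.21 (adjusted p = 0.0455). At an unadjusted p under 0.05 in edgeR's test, 7 genes (29.2%) were lower and 0 higher, where 15.3% of all genes were lower and 13.7% higher. Leaving out siCtrl replicate 2 gave 8 called genes, 1 of them higher, in a fit that called 33.3% of all genes. Bin1, a curvature gene by role, moved the other way. The most abundant gene, Sh3glb1, had a log2 fold change of 0.14 (adjusted p = 0.245).

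None of the 32 genes of RAB5 and early endosome fusion, the machinery in which EEA1 and rabaptin-5 act, passed edgeR's test. Of these, 9 (28.1%) had an unadjusted p under 0.05 (2 higher, 7 lower), near the 29% of all genes, and DESeq2 called 1 higher and 1 lower. With siCtrl replicate 2 left out, edgeR called 12 of the 32 (5 higher, 7 lower), in a fit that called 33.3% of all genes. Rab5c, the most abundant, had a log2 fold change of 0.10 (adjusted p = 0.24). AP-1, GGA and related adaptors at the trans-Golgi network gave 1 called gene of 12 (8.33%, against 12.6% of all genes). This gene, Synrg, fell by 0.24 (adjusted p = 0.0327), and Ap1s1, the most abundant, had −0.09 (adjusted p = 0.338). Here 6 genes were called without siCtrl replicate 2 (2 higher, 4 lower), where 33.3% of all genes were. Synrg lost its call without siCtrl replicate 3 or any siNQO1 library.

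In the ESCRT list, to which Hgs belongs by role, 1 of 27 genes was higher and 3 were lower. That is 14.8% called, against 12.6% of all genes. Chmp6, an ESCRT-III subunit, fell by 0.37 (adjusted p = 0.00805), Vps37c, of ESCRT-I, by 0.39 (adjusted p = 0.0415) and Chmp1a by 0.18 (adjusted p = 0.036), while Vps36, of ESCRT-II, rose by 0.33 (adjusted p = 0.0499). Snf8, the most abundant, had −0.15 (adjusted p = 0.131). The ESCRT count was 10 without siCtrl replicate 2 (3 higher, 7 lower), in a fit that called 33.3% of all genes. It was 1 or 2 with any other library left out. Of 16 genes of retromer, sortilins and sorting nexins, 3 were called (18.8%, against 12.6% of all genes). Snx12 fell by 0.35 (adjusted p = 0.00515) and Snx4 by 0.30 (adjusted p = 0.032). Snx27, a retromer partner in recycling, rose by 0.19 (adjusted p = 0.0361). At an unadjusted p under 0.05 in edgeR's test, 7 of the 16 (43.8%) passed, 4 higher and 3 lower, against 29% of all genes. In this list the most abundant gene, Rab7a, had 0.06 (adjusted p = 0.439). Of 18 recycling genes only Ehd4, a membrane-remodeling ATPase, passed (5.56% called, against 12.6% of all genes). Ehd4 fell by 0.28 (adjusted p = 0.0307), while the abundant Arf6 had 0.02 (adjusted p = 0.773). Leaving out siCtrl replicate 2 raised the retromer count to 10 (7 higher, 3 lower) and the recycling count to 7 (1 higher, 6 lower). Again, that fit called 33.3% of all genes. Any other library left out lowered the retromer count to 1 or 2 and took the call from Ehd4.

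Of 14 receptors carried by clathrin, 2 were higher and no gene was lower in edgeR (14.3% called, against 12.6% of all genes). DESeq2 called 2 higher and 1 lower. At an unadjusted p under 0.05 in edgeR's test, 3 genes were higher and 2 lower (35.7%, against 29% of all genes). In the edgeR fit without siCtrl replicate 2, 2 were higher and 3 lower, and without siCtrl replicate 1 or any siNQO1 library 1 gene was called. Tfrc, the transferrin receptor that takes up iron, had an FPKM of 8.83, 11.43 and 9.35 in siCtrl and 17.41, 17.24 and 14.66 in siNQO1, with no overlap. It rose by 0.75 on the log2 scale (SE 0.107, adjusted p = 0.0041). M6pr, the most abundant, had a log2 fold change of 0.08 (adjusted p = 0.26).

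None of the 10 genes of caveolae and flotillins, a route that does not use clathrin, passed in edgeR, with 3 (30%) at an unadjusted p under 0.05, near the 29% of all genes, and 1 called higher by DESeq2. The edgeR count was 3 when siCtrl replicate 2 was left out (2 higher, 1 lower), in a fit that called 33.3% of all genes. Cav1, the most abundant, had a log2 fold change of 0.02 (adjusted p = 0.859). Of 14 other genes named for Alzheimer disease risk, 1 passed (7.14%, against 12.6% of all genes). This was Apoe, a lipid carrier, at a mean below 3 FPKM in both groups. It rose by 0.69 (adjusted p = 0.0411), and did not pass with the replicate number as a block (adjusted p = 0.0568). The count was 6 without siCtrl replicate 2 (3 higher, 3 lower), in that same fit with 33.3% of all genes called. Apoe lost its call without siCtrl replicate 1 or any siNQO1 library. App, the most abundant of them, had −0.01 (adjusted p = 0.946).

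**Figure D5:**
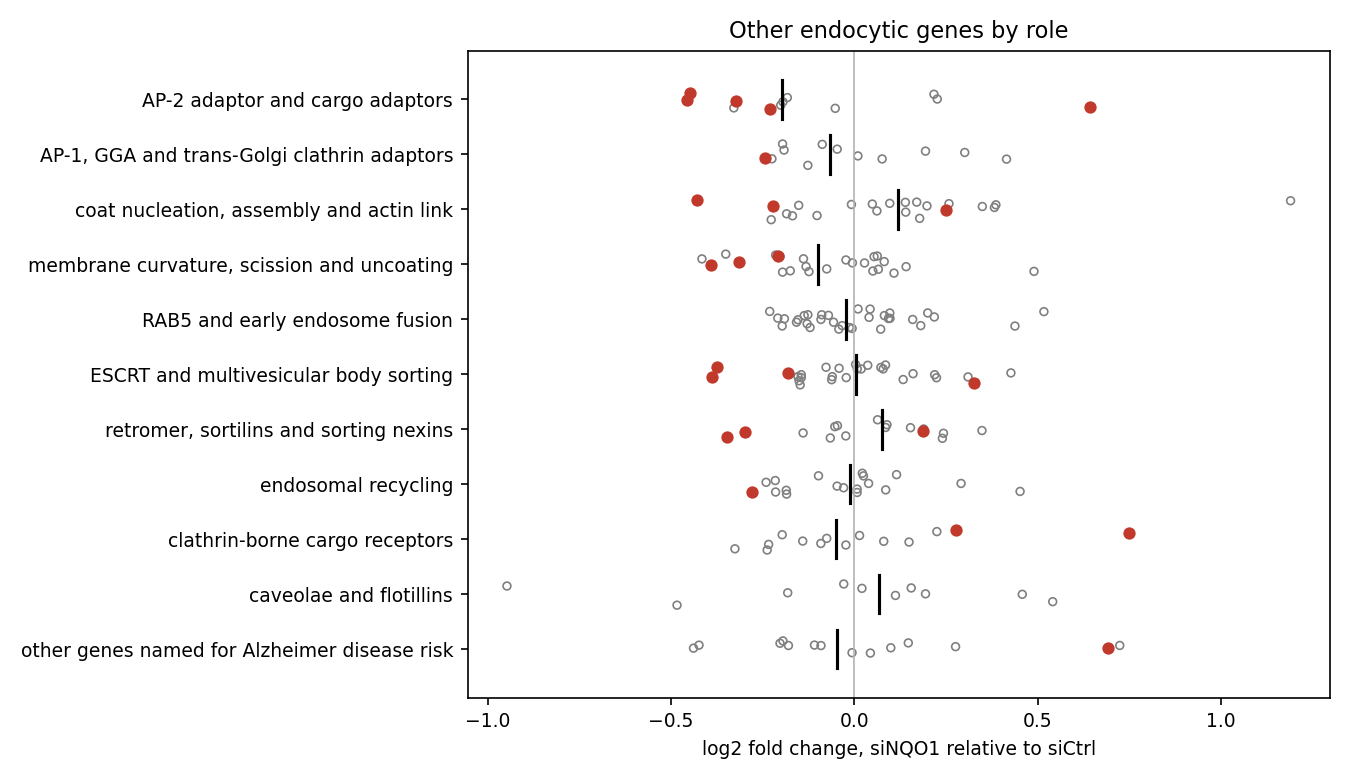
Log2 fold change in siNQO1 relative to siCtrl (horizontal axis) of each tested gene of 11 lists by role (rows), filled red where the adjusted p was under 0.05 and open grey otherwise, with the list median as a black bar. The AP-2 row had its median at −0.20 with 4 red points below 0 and Numbl above, and the RAB5 and caveolae rows had no red point.

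The rule for named genes took 22 called genes of these lists. Of these, 8 kept the call whichever library was left out: Ap2b1, Numbl, Necap1, Sh3glb2, Pacsin2, Chmp6, Snx12 and Tfrc. The other 14 lost it without at least 1 library, with a highest adjusted p between 0.0696 and 0.2.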

How the data were processed

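Polyadenylated RNA of 6 samples labelled as PC12 was sequenced as paired reads from a stranded kit. The authors removed reads rich in ambiguous bases, trimmed adaptors and poor ends, mapped to RGSC6 by TopHat2 and kept unique hits. Besides TopHat2, the notes of the submitters list bcl2fastq and edgeR. From these hits the authors made the deposited gene counts, which are whole numbers without scaling. The deposited FPKM values were scaled by the authors to transcript length and mapped reads and rounded. The sources used here name neither the counter nor its strand setting, and genes that overlap, also antisense, may share reads.

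The main test on counts was that of edgeR 4.0.16 in R 4.3.3 (filterByExpr, TMM, glmQLFit and glmQLFTest without a block, Benjamini-Hochberg adjustment over 12420 genes). The fitted dispersion gave a common coefficient of variation of 0.109. The script was tested on simulated counts, drawn for independent libraries from the fitted means and dispersions. No simulated library departed from its group, so that test does not bear on siCtrl replicate 2. Log2 CPM used a prior count of 2. Alternatives were other scalings and filters, other edgeR tests, glmTreat at a fold of 1.5, DESeq2 1.42.0, limma 3.58.1 (voom, and log2 FPKM with pseudocounts of 1 and 0.1), a replicate block and each library left out. The deviations from the group means of libraries with the same number correlated at −0.0383, 0.161 and 0.0568. Those of libraries with different numbers correlated at −0.171 to 0.149. Libraries were treated as unpaired, though such values cannot exclude a shared batch.

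The 10 genes, the 11 lists and the tests were chosen with earlier results of these data known. Named genes are the 10, Nqo1, up to 4 called genes of each list with the largest change and a mean log2 CPM over 0, the most abundant gene of each list, and the 3 genes most like Bin1, Picalm and Eea1. Where a list symbol matched more than 1 row, the row with more reads was used. Some genes that this rule selects are left out of the text. Splicing, RT-qPCR and Sorl1 were not analysed here. Promoters are from RefSeq (GRCr8), a later build than that of the files, and were matched by symbol.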

Additional observations from a re-analysis of the deposited data

How the results depend on the processing

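No direction among the called results reversed under any alternative run. Bin1 ranged from 0.3 to 0.353 and Cltb from 0.263 to 0.338 in log2 fold change over 20 alternatives. A test against a fold of 1.5 called 10 of all genes, 0 of the 9 endocytic genes (0 with an unadjusted p under 0.05) and 0 of the 201 list genes (2 with an unadjusted p under 0.05), and limma on log2(FPKM + 1) without a filter called 990 genes in all and 12 list genes. Leaving out each library in turn gave 518 to 4200 called genes in all, 1 to 6 endocytic genes, 8 to 88 list genes (88 without siCtrl replicate 2) and a difference in the Cltb share of 1.65 to 2.83 percentage points. The cause of these shifts was not tested. Called genes that were higher made up 41.6% under TMM and 38.3% to 46.3% under the other scalings. Eea1 had 58 to 240 reads a library, the fewest of the 9 endocytic genes.

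With the replicate number as a block, 1350 genes in all, 2 endocytic genes and 19 list genes were called. Whether libraries of the same number shared a culture or transfection is not stated, and the block left Bin1 and Cltb called. Among the named list genes it lost Eps15, Epn2, Snx9, Chmp1a, Snx27 and Apoe, with adjusted p from 0.0568 to 0.085.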

Other observations

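The pattern seen in Picalm, Cd2ap, Eea1 and Rabep1 was counted in other genes after the values had been seen. It was defined as every siNQO1 library above siCtrl replicates 1 and 3, with siCtrl replicate 2 at or above the lowest siNQO1 library. Picalm, Cd2ap, Eea1 and Rabep1 met it by construction and Cltc also did, in all 5 of the 9 endocytic genes. Their share is therefore not comparable with that of the 12420 genes tested, of which 1558 (12.5%) met it. The mirrored pattern, with siNQO1 and siCtrl replicate 2 below the other siCtrl libraries, was met by 1296 genes (10.4%) and by 0 of the 9. Of the 201 list genes, 19 (9.45%) met the first and 26 (12.9%) the second. Among the 19 were Rab5a, the GTPase that recruits EEA1, Vps35 and Vps26a of retromer, and Adam10, the alpha-secretase, all named after their values were seen. Rab5a had an FPKM of 16.27, 31.16 and 20.27 in siCtrl replicates 1, 2 and 3 and of 28.68, 25.73 and 23.61 in siNQO1 replicates 1, 2 and 3, and its log2 fold change over all libraries was 0.22 (SE 0.203, adjusted p = 0.523 in edgeR's quasi-likelihood test). These counts describe the libraries, share them across genes and carry no test.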
